A study of Mus musculus with 28 samples.

Results

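The hippocampal response of wild-type mice to trichostatin A (TSA) was measured while the animals explored a new environment, on 6 arrays of the 28 in the series. The members are the 3 arrays of wild-type mice given TSA and then novelty and the 3 arrays of wild-type mice given vehicle and then novelty, chosen by their labels and paired by replicate number. The mice were 3-month-old females of a C57/DBA F1 hybrid background, wild-type littermates of cbp+/- animals. One group received TSA intraperitoneally at 2.4 mg/kg and the other the DMSO/saline vehicle. All 6 arrays come from injected animals that spent 1 h alone in a box with tubing and toys, so novelty and injection were common to both groups. In the TSA group the exploration began 15 min after the injection, and tissue was taken 75 min after TSA. Each array holds RNA pooled from the hippocampi of 3 to 4 mice, and the extraction protocol in the labels gives 4. The pool is therefore the replicate, and the spread between single animals was not measured.

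Most of the other arrays used below carry the same drug contrast in 3 other backgrounds: cbp+/- mice in novelty, wild-type mice in standard housing and cbp+/- mice in standard housing. The cbp+/- mice have 1 working copy of the gene for CREB-binding protein, an acetyltransferase. Each of these backgrounds had 3 TSA arrays and 3 vehicle arrays. The remaining arrays were labelled naive and came from standard housing, 2 of wild-type and 2 of cbp+/- mice. Fits on all arrays of the series joined them with the standard-housing vehicle arrays as controls.

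TSA blocks the zinc-dependent histone deacetylases, enzymes that remove acetyl groups from histone tails and from other proteins. Acetylation of promoter histones is set by the balance of acetyltransferases such as CREB-binding protein and these deacetylases, which act in corepressor complexes with SIN3, NuRD or the REST corepressor CoREST. Exploration of a new environment is known to activate immediate early genes such as Fos, Arc and Npas4 in hippocampal neurons through calcium signalling and CREB.

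The samples carried the transcripts of the labelled tissue. Prox1, which marks dentate granule neurons, ranged from 7.77 to 8.66 in log2 expression over the 6 arrays, and Wfs1, which marks CA1 pyramidal neurons, from 8.07 to 8.88. One array stood apart: the TSA replicate 1 array had raised transcripts of the choroid plexus, the epithelium that secretes cerebrospinal fluid, as given below.

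No gene of the 19938 tested passed an adjusted p of 0.05 between TSA and vehicle (0%) in limma's moderated test with the replicate number as a block and Benjamini-Hochberg adjustment. The lowest adjusted p was 0.0696. At an unadjusted p under 0.05 there were 1989 genes (9.98%), of which 1204 were higher after TSA (6.04%) and 785 lower (3.94%). The median difference over all genes was 0.03 on the log2 scale, and the median 95% interval reached 0.22 to either side, so single genes with small differences could not be resolved with 3 pairs. The count depended on how the spread was estimated. With the array set as a block over all 28 arrays, an alternative chosen after the data were seen, 14 genes passed, 12 of them higher after TSA. That fit joined the naive arrays with the standard-housing vehicle arrays. The standard-housing vehicle arrays were placed in the array sets from the data, not from the labels. All 14 genes had 1 sign in the 3 pairs, but they passed on those same pairs, so this is no separate support. Without any block none passed.

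The genes of smallest p were therefore described as a ranking and not as calls. They are the 12 highest-ranked genes in each direction among those with 1 sign in all 3 pairs, and their adjusted p-values in limma ran from 0.0696 to 0.141. Of all genes, 36.6% had 1 sign in the 3 pairs, 22.8% higher and 13.8% lower. For comparison, the same drug contrast was averaged over the 3 other backgrounds on 18 arrays that share no sample with the 6, with the array set as a block. There limma called 271 genes (1.36%), 175 higher after TSA (0.878%) and 96 lower (0.481%), and only those results are written as a rise or a fall. That number rests on the block: it was 0 without it, and 8, 13 and 125 without array set 1, 2 and 3.

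Promoter sequences are shown for the 3 genes that combined a place at the top of the ranking, a call on the other arrays and an entry in the RefSeq promoter table (build GRCm38.p6): Gdf11, Fgf9 and Lratd1. They let the starts of genes with higher and with lower transcript levels be read side by side, and they were picked after the values were seen. Each window holds 300 bases around the annotated start, most of them upstream of it, on the gene's strand. Gdf11 lies on the minus strand at chr10:128891669-128891968, Fgf9 on the plus strand at chr14:58072436-58072735 and Lratd1 on the minus strand at chr12:14151989-14152288. Capitals mark matches on either strand to the GC box GGGCGG, to CCAAT, to TATAAA and to the cAMP response element TGACGTCA.
Gdf11: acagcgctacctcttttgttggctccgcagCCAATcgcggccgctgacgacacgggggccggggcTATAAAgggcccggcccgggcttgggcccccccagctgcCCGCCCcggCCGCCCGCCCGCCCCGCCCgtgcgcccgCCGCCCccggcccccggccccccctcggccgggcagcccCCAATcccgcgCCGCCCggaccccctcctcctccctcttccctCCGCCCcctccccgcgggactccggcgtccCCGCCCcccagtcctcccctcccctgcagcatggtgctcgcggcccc
Fgf9: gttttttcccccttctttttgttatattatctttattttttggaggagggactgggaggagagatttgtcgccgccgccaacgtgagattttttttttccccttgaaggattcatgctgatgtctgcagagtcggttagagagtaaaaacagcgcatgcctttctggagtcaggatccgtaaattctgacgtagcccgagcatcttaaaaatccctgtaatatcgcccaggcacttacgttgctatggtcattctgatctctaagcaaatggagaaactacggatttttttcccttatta
Lratd1: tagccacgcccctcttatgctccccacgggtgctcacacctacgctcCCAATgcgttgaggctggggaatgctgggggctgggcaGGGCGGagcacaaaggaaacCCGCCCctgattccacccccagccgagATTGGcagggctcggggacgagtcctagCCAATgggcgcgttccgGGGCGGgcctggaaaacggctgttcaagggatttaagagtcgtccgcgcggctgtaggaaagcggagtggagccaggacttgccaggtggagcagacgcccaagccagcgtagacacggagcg

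The windows of Gdf11 and Lratd1, whose transcripts differed in opposite directions, both hold GC boxes and CCAAT, and that of Fgf9 holds none of the 4 motifs. Gdf11 has 9 GC boxes, some of them overlapping, and 36 CG dinucleotides in the 300 bases, against 3 GC boxes and 23 CG in Lratd1 and 12 CG in Fgf9. Over 15563 promoters of tested genes, 49.9% hold GGGCGG, 38.3% CCAAT, 12.1% TATAAA and 2.5% TGACGTCA, and the median number of CG is 15. Of the 12 ranked genes that were higher after TSA, 7 have an entry, 5 of those hold GGGCGG and 2 CCAAT. Of the 12 that were lower, 9 have an entry, 7 hold GGGCGG and 4 CCAAT. None of these 16 windows holds TGACGTCA. The median number of CG was 21 in the higher and 17 in the lower genes. A match describes letters in this window and no more.

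**Figure D1:**
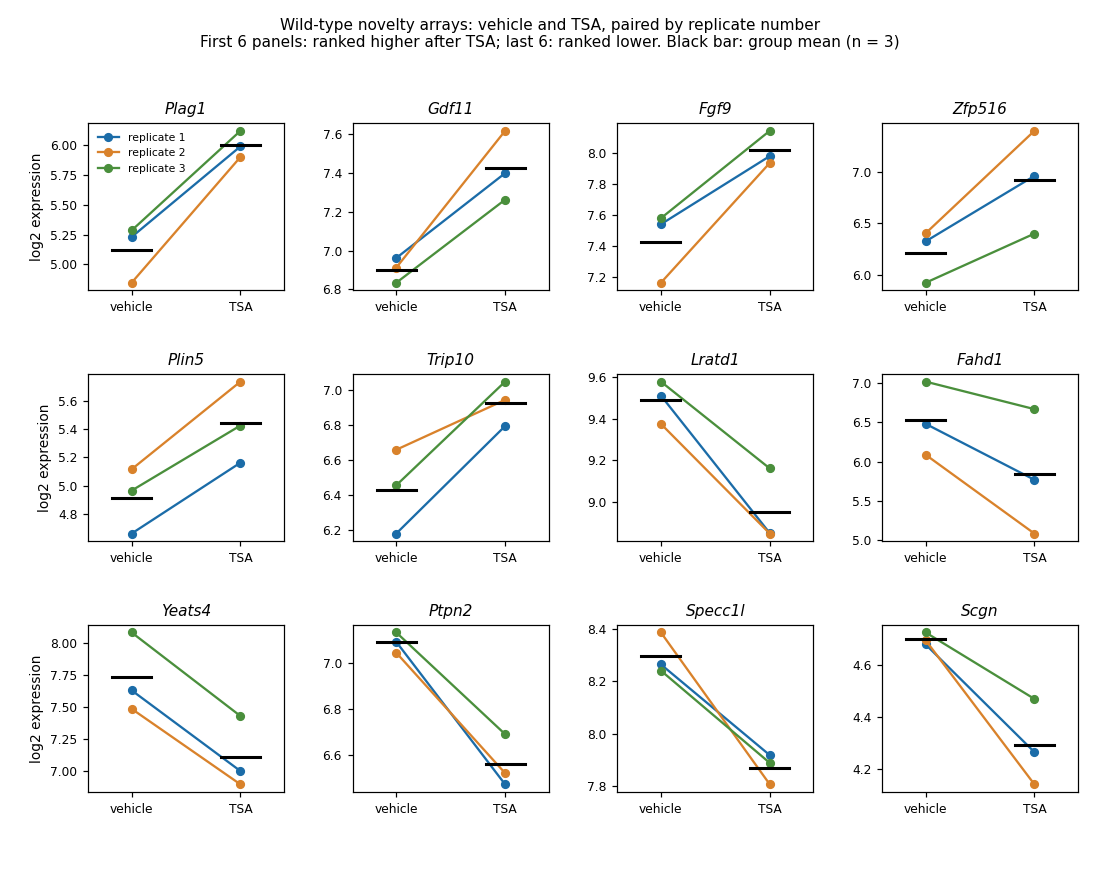
Log2 expression of 12 ranked genes in the vehicle and TSA arrays of wild-type novelty mice, the 6 of smallest p higher after TSA first and then the 6 lower; each line joins a same-numbered pair, the black bar is the group mean (n = 3), and the axes do not start at 0. All 3 lines of a panel run in 1 direction, as the ranking requires, and the group means differ by 0.88 in Plag1 and by -0.69 in Fahd1.

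Plag1, a zinc-finger transcription factor of embryonic growth, had the largest difference of the ranking. Its log2 expression was 5.23, 4.85 and 5.28 in the vehicle arrays and 5.99, 5.90 and 6.12 in the TSA arrays. All TSA values lay above all vehicle values. The difference over the 3 pairs was 0.88 ± 0.15 (SE), a 1.85-fold level. Its 95% interval ran from 0.58 to 1.19 and its adjusted p was 0.0696 in limma. For this contrast the SE and interval, here and below, are limma's moderated ones and draw on all 18 arrays of the fit. On the other arrays Plag1 rose by 0.67 ± 0.08 (SE; limma adjusted p = 0.00122).

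Gdf11 and Fgf9 had the next smallest p among the genes that were higher after TSA. Gdf11, a secreted TGF-beta family ligand, measured 6.96, 6.91 and 6.83 after vehicle and 7.40, 7.62 and 7.26 after TSA. Fgf9, a fibroblast growth factor made by neurons and glia, measured 7.54, 7.16 and 7.58 after vehicle and 7.98, 7.94 and 8.15 after TSA. In both genes the groups did not overlap, which held for 803 of all genes in this direction (4.03%). The differences were 0.52 ± 0.09 for Gdf11 and 0.59 ± 0.10 for Fgf9 (SE), and both rose on the other arrays, by 0.27 and 0.50.

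Chromatin proteins linked to repression stood among the 12. They were L3mbtl3, a reader of methylated histones, Cbx2, a Polycomb subunit, and Bcor, a corepressor that joins a Polycomb complex. L3mbtl3 measured 7.44, 7.22 and 7.33 after vehicle against 7.75, 7.93 and 8.07 after TSA. Cbx2 measured 5.49, 5.55 and 5.54 against 5.95, 6.48 and 5.89. Bcor measured 5.77, 6.18 and 5.69 against 6.34, 6.57 and 6.09. The first 2 pairs of groups were separate, whereas the Bcor groups overlapped because the vehicle array of replicate 2 was higher than the TSA array of replicate 3. The differences were 0.59 ± 0.11, 0.58 ± 0.11 and 0.45 ± 0.09 (SE). On the other arrays L3mbtl3 and Bcor rose, by 0.47 and 0.40, and Cbx2 differed by 0.23 ± 0.07 without passing the test (limma adjusted p = 0.114).

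Ccne1, the cyclin that acts with Cdk2 at entry into S phase, showed little spread within groups: 7.14, 7.17 and 7.22 after vehicle and 7.69, 7.67 and 7.70 after TSA. Its difference of 0.51 ± 0.10 had a counterpart of 0.41 ± 0.06 on the other arrays, where it rose (limma adjusted p = 0.00364). Tbc1d31, a TBC-domain protein of the centrosome, measured 6.11, 5.81 and 6.14 against 6.67, 6.90 and 6.69. Zfp516, a zinc-finger protein, measured 6.33, 6.40 and 5.93 against 6.96, 7.40 and 6.40, so that its lowest TSA value and highest vehicle value coincided. Both rose on the other arrays, by 0.58 and 0.44. Trip10, an adaptor of membrane bending, and Dcbld1, a transmembrane protein, completed the set with differences of 0.50 and 0.55, and rose by 0.27 and 0.35 there.

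Plin5 was the exception. This lipid-droplet coat protein measured 4.66, 5.12 and 4.97 after vehicle and 5.16, 5.73 and 5.42 after TSA, with every TSA value above every vehicle value. The difference was 0.53 ± 0.10 here and -0.05 ± 0.05 on the other arrays. In cbp+/- mice in novelty its 3 pairs gave -0.31, -0.07 and -0.06. The wild-type minus cbp+/- difference of the effect was 0.67, with a 95% interval from 0.38 to 0.97, but its adjusted p over all genes was 0.758 in limma.

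Among the genes with lower signal after TSA, Lratd1 had the smallest p. It encodes a protein with a lecithin retinol acyltransferase domain. It measured 9.51, 9.38 and 9.58 after vehicle and 8.85, 8.85 and 9.16 after TSA. The groups did not overlap, as for 346 of all genes in this direction (1.74%). The difference was -0.53 ± 0.09 (SE), with a 95% interval from -0.72 to -0.35 and an adjusted p of 0.0696 in limma, and on the other arrays Lratd1 fell by 0.27.

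Ptpn2, a tyrosine phosphatase that turns off JAK-STAT signalling, measured 7.09, 7.04 and 7.13 after vehicle against 6.47, 6.52 and 6.69 after TSA. Yeats4, a reader of acetylated histones in the NuA4 and SRCAP complexes, measured 7.63, 7.49 and 8.09 against 7.0, 6.90 and 7.43. Fahd1, a mitochondrial oxaloacetate decarboxylase, measured 6.48, 6.09 and 7.02 against 5.77, 5.09 and 6.67. The groups of Ptpn2 and Yeats4 were separate, and those of Fahd1 overlapped although each pair had the same sign. The differences were -0.53 ± 0.11, -0.63 ± 0.12 and -0.69 ± 0.13 (SE). Of these only Ptpn2 passed on the other arrays, where it fell by 0.39 (limma adjusted p = 0.00371).

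The other 8 lower genes had smaller differences. Zfat, a zinc-finger protein of lymphocytes and blood vessels, differed by -0.46 here and fell by 0.32 on the other arrays. Hacd1, an enzyme of very long chain fatty acid synthesis, Guf1, a mitochondrial translation factor, Txndc9, a thioredoxin-like partner of the chaperonin, and Ankub1 differed by -0.47, -0.48, -0.45 and -0.38. Agmo, which cleaves ether lipids, differed by -0.49 and Scgn, a calcium-binding protein of some interneurons, by -0.41. Specc1l, a cytoskeletal protein, differed by -0.43, and its TSA values of 7.92, 7.81 and 7.89 all lay under its vehicle values of 8.26, 8.39 and 8.24. Apart from Zfat, none of these passed on the other arrays.

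**Figure D2:**
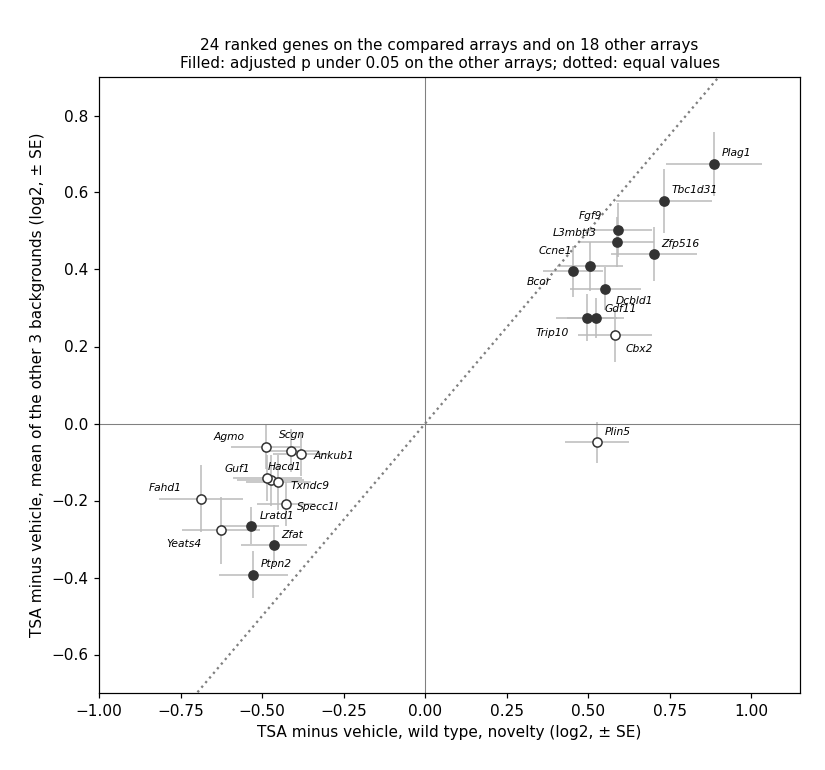
TSA minus vehicle in log2 units for the 24 ranked genes, in wild-type mice during novelty (horizontal) and averaged over the other 3 backgrounds (vertical), each with its standard error; filled points had an adjusted p under 0.05 on the 18 other arrays. All but Plin5 have the same sign on both axes, and the points lie closer to 0 on the vertical axis.

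Set against the other 18 arrays, 23 of the 24 ranked genes had the same sign, compared with 59.3% of all genes. Limma called 10 of the 12 higher genes and 3 of the 12 lower genes there (Lratd1, Ptpn2 and Zfat). The median difference was 0.57 here and 0.40 there for the higher genes, and -0.48 here and -0.17 there for the lower genes. The genes were ranked on the first of these values, so the sizes cannot be compared. The error term of the ranking also drew on arrays of the other backgrounds.

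The lists by function were taken next, with counts at an unadjusted p under 0.05 because no member of any list passed after adjustment. Against 6.04% of all genes higher and 3.94% lower, the lists with the largest share of members on the higher side were corepressors, developmental genes and cell cycle genes. Those with the largest share on the lower side were splicing factors, acetyltransferase complexes and glucocorticoid-induced genes. Over all genes, 58.9% of the differences were positive. The lists were chosen with earlier results of these data known.

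**Figure D3:**
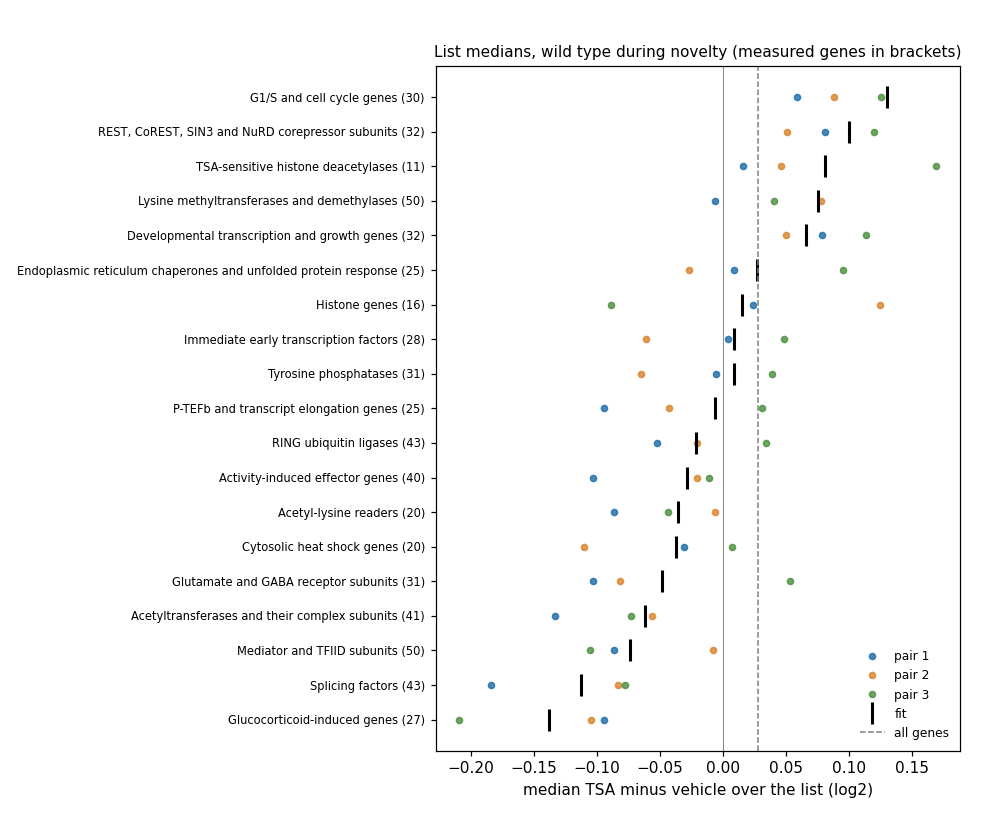
Median TSA minus vehicle difference, in log2 units, of the 19 lists by function in wild-type mice during novelty, with the number of measured genes in brackets; points are the 3 same-numbered pairs, the black bar is the median of the fitted differences and the dashed line the median of all genes. The bars run from -0.14 for glucocorticoid-induced genes to 0.13 for G1/S genes, and in many lists the pairs lie on both sides of 0.

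Of 32 subunits of the REST, CoREST, SIN3 and NuRD corepressors, 8 were higher at an unadjusted p under 0.05 and none lower, with a list median of 0.10 against 0.03 for all genes. Rest, the zinc-finger repressor that keeps neuronal genes off in other cells, measured 5.34, 5.28 and 4.94 after vehicle and 5.95, 6.01 and 5.59 after TSA. Sin3a, a scaffold of a deacetylase complex, measured 7.33, 7.28 and 7.21 against 7.88, 7.92 and 7.37. Both had separate groups. The differences were 0.66 ± 0.13 for Rest and 0.45 ± 0.13 for Sin3a (SE; limma adjusted p 0.113 and 0.271). Rcor1, which encodes CoREST, and the NuRD subunit Gatad2a differed by 0.30 and 0.36. On the other arrays Rest, Sin3a and Rcor1 rose, by 0.51, 0.38 and 0.31.

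Among the 11 TSA-sensitive deacetylases themselves, 1 was higher at an unadjusted p under 0.05: Hdac1, at 8.0, 8.11 and 8.26 after vehicle and 8.28, 8.26 and 8.66 after TSA. Its groups were separate by a narrow margin, and the difference was 0.28 ± 0.09 (SE; limma adjusted p = 0.335). On the other arrays Hdac1 rose by 0.22 (limma adjusted p = 0.0448). The list median was 0.08.

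The acetyltransferases and their partners went mostly the other way, with 8 of 41 lower and 3 higher. Epc2, a scaffold of the NuA4 complex, measured 8.24, 7.77 and 8.08 after vehicle and 7.72, 7.32 and 7.54 after TSA. Ing5, a histone-binding subunit of the MOZ and HBO1 complexes, measured 6.92, 6.84 and 6.62 against 6.15, 6.45 and 6.38. Kat5, the catalytic subunit of NuA4, measured 7.5, 7.56 and 7.48 against 7.35, 6.93 and 7.18. Every TSA value of these 3 genes was under every vehicle value of the same gene. The differences were -0.50, -0.47 and -0.36, and Epc2 and Ing5 fell on the other arrays, by 0.41 and 0.39. Crebbp, which encodes CREB-binding protein, measured 9.70, 9.40 and 8.81 against 9.51, 9.48 and 8.80, a difference of -0.04 ± 0.12 (SE).

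Of 50 measured genes in the list of lysine methyltransferases and demethylases, 3 were higher and 1 lower. The list also held the L3mbtl readers, which are not such enzymes, and L3mbtl3 was among the 3 higher genes. The lower one was Kmt5b, which methylates histone H4, at 7.63, 7.70 and 7.52 after vehicle and 6.82, 7.17 and 7.26 after TSA, with no overlap. The difference was -0.53 ± 0.13 (SE), and Kmt5b fell by 0.55 on the other arrays. Among 16 histone genes 3 were higher and 1 lower. The linker histone gene H1f5 measured 6.16, 6.41 and 6.37 after vehicle and 6.79, 6.76 and 6.61 after TSA, and rose by 0.49 on the other arrays.

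In the developmental list, 8 of 32 genes were higher and none lower. Beside Plag1 and Fgf9, Sox11, a transcription factor of immature neurons, measured 6.91, 6.85 and 6.85 after vehicle and 7.64, 7.42 and 7.20 after TSA. The groups were separate and the difference was 0.55 ± 0.13 (SE; limma adjusted p = 0.159). Mex3a, an RNA-binding protein of progenitor cells, differed by 0.43. Dact1, a modulator of Wnt signalling, was not among the 8. It differed by 0.29 (limma unadjusted p = 0.072), its groups overlapped, and its pairs gave 0.53, -0.06 and 0.41. Sox11, Mex3a and Dact1 rose on the other arrays by 0.60, 0.50 and 0.51.

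The G1/S list had 7 of 30 genes higher and 1 lower, with a median of 0.13. Ccnd2, a D-type cyclin, measured 9.68, 9.60 and 9.70 after vehicle and 10.04, 10.03 and 10.06 after TSA. Cdk2, the kinase partner of Ccne1, measured 5.10, 4.68 and 5.04 against 5.32, 5.40 and 5.47. Neither gene's groups overlapped. The differences were 0.38 ± 0.09 and 0.46 ± 0.10 (SE), and both genes rose on the other arrays by 0.24. Cdc25a, the phosphatase that activates Cdk2, differed by 0.34 here and rose by 0.39 there.

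Splicing factors had 9 of 43 genes lower and none higher. A negative difference was seen in 34 of the 43, where 58.9% of all genes had a positive one. Rbm39, an SR-like splicing coactivator, measured 9.60, 9.60 and 9.71 after vehicle and 9.24, 9.15 and 9.48 after TSA, with separate groups. Srsf6, an SR protein, measured 8.88, 8.57 and 8.99 against 8.49, 8.06 and 8.83, which overlap. The differences were -0.35 and -0.36, and Srsf6 fell by 0.40 on the other arrays whereas Rbm39 did not pass there (limma adjusted p = 0.067). The medians of the list in the 3 pairs were -0.18, -0.08 and -0.08.

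Glucocorticoid-induced genes had 24 of 27 negative differences, 4 of them at an unadjusted p under 0.05, and a median of -0.14. Of all genes, 58.9% had a positive difference. Hif3a measured 5.92, 5.36 and 5.31 after vehicle and 5.11, 5.12 and 4.95 after TSA, with no overlap. The GTPase Rhob measured 9.44, 9.07 and 8.97 against 9.09, 8.70 and 8.69. The differences were -0.47 and -0.33. On the other arrays the list median was -0.05 and no member passed the test. The list medians of the pairs here were -0.09, -0.10 and -0.21.

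A fixed set of genes was also chosen with earlier results of these data known, so its values lend that choice no support. Members beyond the lists described so far included Siah1b, Med11 and Fv1. Siah1b, a RING ubiquitin ligase, measured 5.04, 5.15 and 5.37 after vehicle and 4.43, 4.75 and 4.95 after TSA. Med11, a Mediator subunit, measured 6.33, 6.56 and 6.88 against 5.85, 5.89 and 6.49. Siah1b had separate groups and Med11 did not. They differed by -0.48 and -0.51 and fell on the other arrays, each by 0.38. Fv1, a retroviral restriction factor derived from an endogenous retrovirus, measured 6.16, 6.66 and 6.0 against 6.75, 7.12 and 6.67. It differed by 0.57 ± 0.13 (SE) and rose by 0.71 on the other arrays.

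Npas4, Fos and Arc, well known genes of the response to exploration, did not pass the test between TSA and vehicle, and their 95% intervals all held 0. Among 28 immediate early transcription factors 1 was higher and 2 lower at an unadjusted p under 0.05, with 14 positive and 14 negative differences. Npas4, a neuronal transcription factor induced by calcium influx, measured 7.92, 7.75 and 7.57 after vehicle and 8.14, 7.47 and 7.5 after TSA. The difference was -0.04, with a 95% interval from -0.31 to 0.22. Fos measured 6.68, 6.92 and 7.41 against 6.35, 6.89 and 7.17, a difference of -0.20 with an interval from -0.62 to 0.22. Arc, a synaptic effector, measured 10.35, 9.94 and 9.63 against 9.97, 9.66 and 9.86, a difference of -0.14 with an interval from -0.39 to 0.11. These intervals bound the effect and do not show that TSA left the genes alike.

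**Figure D4:**
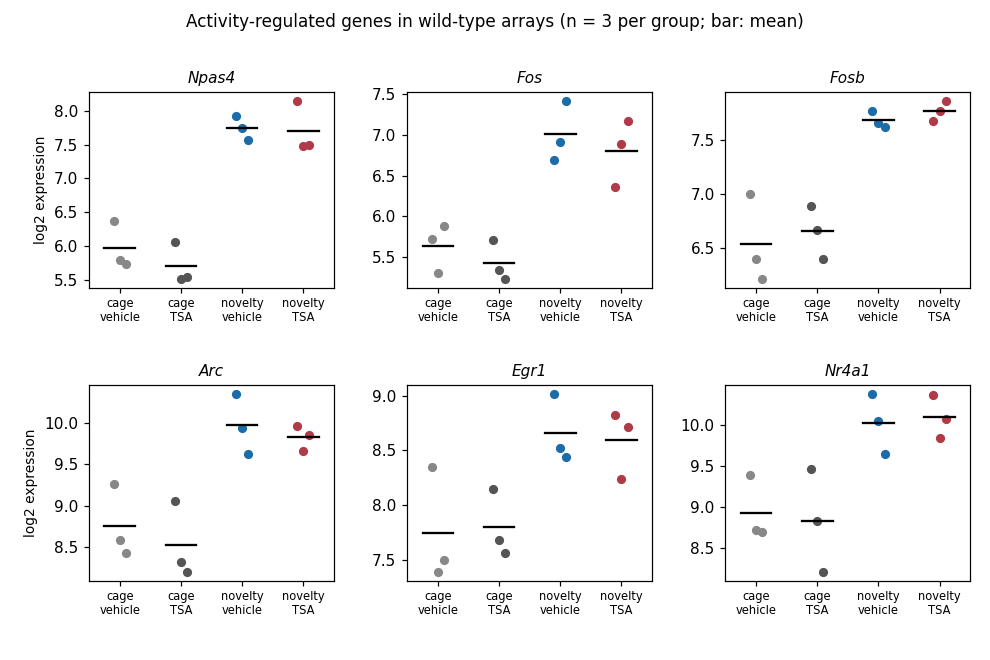
Log2 expression of 6 activity-regulated genes in wild-type arrays, 3 per group, with the group mean as a bar; the axes do not start at 0. In each gene the TSA points of the novelty groups overlap with the vehicle points, and both lie above most or all of the standard-housing points.

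The level in standard housing gives the scale of these values. Npas4 measured 6.37, 5.80 and 5.73 in the standard-housing vehicle arrays and 6.06, 5.52 and 5.55 in the standard-housing TSA arrays. Fos measured 5.72, 5.30 and 5.89 in the first and 5.71, 5.34 and 5.23 in the second. For both genes the novelty arrays of either treatment lay above all 6 of these. Fosb, Egr1, Egr2 and Nr4a1 differed by 0.09, -0.07, -0.06 and 0.07 between TSA and vehicle during novelty, and the feedback phosphatase gene Dusp1 by -0.29 ± 0.23 (SE).

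The few early genes with small p pointed in different directions. Ier2 measured 5.09, 5.17 and 5.18 after vehicle and 5.43, 5.43 and 5.64 after TSA, with separate groups. Ier5 measured 6.92, 6.64 and 6.93 against 6.62, 5.96 and 6.69, and Crem, a CREB-family member, differed by -0.24. Among 40 activity-induced effector genes 2 were higher and 5 lower. Rgs2, which limits G-protein signalling, differed by -0.35 and Plk2, a kinase of synaptic scaling, by -0.22, each with overlapping groups. Of 31 glutamate and GABA receptor subunits none had an unadjusted p under 0.05.

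Choroid plexus transcripts separated 1 array from the rest. Ttr, the transthyretin gene and the main secreted product of that epithelium, measured 10.91, 7.32 and 7.65 after vehicle and 12.28, 6.61 and 7.32 after TSA. The replicate 1 arrays of both groups were high, and in the other pairs TSA was lower. Over the 22 measured of 25 listed choroid plexus markers the mean level was 6.11 in the TSA replicate 1 array, 5.20 in the vehicle replicate 1 array and from 4.88 to 5.01 in the other 4. The 22 other arrays of the series ranged from 4.84 to 6.17 with a median of 4.96.

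**Figure D5:**
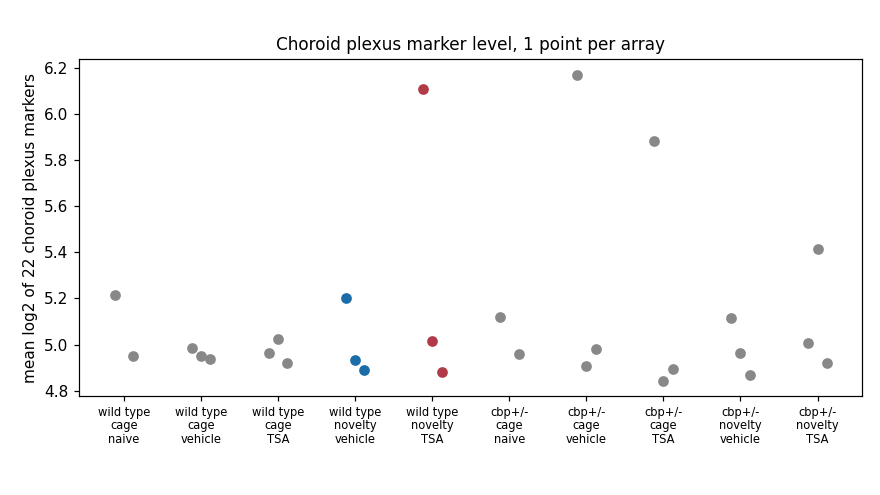
Mean log2 level of 22 choroid plexus markers in each of the 28 arrays, 1 point per array, grouped by genotype, housing and treatment; the vertical axis does not start at 0. The TSA replicate 1 array of wild-type novelty mice lies at 6.11, and 2 arrays of cbp+/- mice lie near it.

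All 22 markers had a positive fitted difference, against 58.9% of all genes. Their median was 0.27, and the pairs gave medians of 0.75, 0.06 and 0.04. The number of markers higher after TSA was 22, 13 and 14 of 22 in pairs 1, 2 and 3. Without both replicate 1 arrays the median was 0.09. Without these arrays the sign of the 24 ranked genes was fixed in advance, since the ranking required 1 sign in the 3 pairs. The 24 genes also kept their sign with the choroid plexus level as a covariate. The largest change of any ranked difference was 0.15 in the first case and 0.08 in the second.

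Lists of other cell types had medians closer to 0. In tissue arrays fewer cells of a type and less RNA per cell cannot be told apart. Markers of CA1, dentate and CA3 neurons had median differences of 0.07, -0.04 and 0.07, and those of interneurons and microglia -0.02 and 0.02. Oligodendrocyte markers had a median of -0.19, with 10 of 11 negative and pair medians of 0.01, -0.22 and -0.21. Over all genes 58.9% were positive. Mobp, a myelin protein gene, measured 8.93, 8.82 and 8.82 after vehicle and 8.75, 8.72 and 8.35 after TSA. Astrocyte markers had a median of -0.10. The part of these shifts in the gene differences above was not tested.

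Whether TSA acted differently in cbp+/- mice was tested on the novelty arrays of both genotypes. No gene of 19938 passed (0%), 883 had an unadjusted p under 0.05 (4.43%), and the lowest adjusted p in limma was 0.758. In cbp+/- mice alone none passed either, with 1055 at an unadjusted p under 0.05 (5.29%) and a lowest adjusted p of 0.0536. Plag1 differed by 0.94 in cbp+/- mice against 0.88 in wild type, and the interval of that difference ran from -0.49 to 0.38. For L3mbtl3 the effects were 0.71 and 0.59, with an interval from -0.46 to 0.21. For Rest they were 0.50 and 0.66, with an interval from -0.24 to 0.55. For these genes an equal effect lies within the interval, as does a sizeable difference.

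Dnajb6, a J-domain chaperone, and Trp53tg5 were named beside Plin5 for the smallest p in the test between genotypes. Genes with only a predicted or clone name were left out of that choice. Dnajb6 gave 0.14, 0.42 and 0.52 in the wild-type pairs and -0.27, -0.44 and -0.32 in the cbp+/- pairs. Trp53tg5 gave 0.27, 0.53 and 0.28 against -0.23, -0.56 and -0.06. In each gene the 2 genotypes lie on opposite sides of 0. Neither passed over all genes, at adjusted p-values of 0.758 and 0.894 in limma.

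The effect of TSA in wild-type mice was also set against standard housing. No gene passed in the test of the difference (0%), with 164 at an unadjusted p under 0.05 (0.823%). In standard housing itself none passed, with 263 at that level (1.32%) in wild type and 273 (1.37%) in cbp+/- mice. That fit had no block, because the vehicle arrays in standard housing are numbered otherwise, and its residual spread was wider, so these shares cannot be set beside those of the novelty fit. With the array set as a block on 24 arrays, Ptpn2 and Fv1 passed in wild type in standard housing (limma adjusted p 0.0303 each) and Fv1 in cbp+/- mice (0.0061). That block placed the standard-housing vehicle arrays in sets from the data, not from the labels, so these p-values rest on that placement. With it the test of the difference between housings still called 0 genes, with 697 at an unadjusted p under 0.05. Plag1 differed by 0.62 ± 0.18 (SE) in standard housing, and the interval of the novelty minus standard-housing difference ran from -0.28 to 0.80. Rest differed by 0.55 and Kmt5b by -0.60 there, with intervals of the difference from -0.46 to 0.69 and from -0.37 to 0.49. Plin5 differed by -0.01 in standard housing, and the interval of the difference ran from 0.11 to 0.97 before adjustment over all genes.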

How the data were processed

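Total RNA of hippocampal pools was hybridised to Affymetrix Mouse Gene 1.0 ST arrays. The log2 expression values deposited by the authors were used as given. They were processed in GeneSpring GX 11, per the labels' protocols, and summarised with RMA, per the submitters' processing notes. A genome build was not given in the sources used here. Transcript clusters with 1 gene symbol were kept, with the cluster of highest mean for a gene with several, which left 19938 genes. The fit used limma 3.58.1 in R 4.3.3 on 18 arrays in 6 groups (the TSA and novelty groups), with the replicate number as a block, two-sided tests and Benjamini-Hochberg adjustment at 0.05. Once each group's mean was subtracted, the correlation was 0.52 to 0.80 for arrays that share a number and -0.63 to -0.07 for those that do not, so the numbers pair the arrays. Housing contrasts used 24 arrays without a block. The comparison with the other 3 backgrounds was added after the data were seen. Array sets served as the block in it and in some alternatives. For all of these, standard-housing vehicle arrays 3, 4 and 5 were placed in array sets 1, 2 and 3 from the data, not from the labels. The correlations given above do not cover these arrays, and no value for this placement is given here. The members, the gene lists and a fixed set of genes were chosen with earlier results of these data known. Named genes are the 12 of smallest p per direction with 1 sign in 3 pairs, up to 4 of smallest p per list, and that fixed set. The fit was tested on simulated data. The number of arrays limits the precision, and p-values measure the spread between pools. Alternatives covered the block, the arrays fitted, weights, normalisation, dim genes, probe clusters and left-out arrays.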

Additional observations from a re-analysis of the deposited data

Results flagged for a closer look

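For 6 of the 170 named genes all 3 wild-type pairs moved one way after TSA and all 3 cbp+/- pairs the other way during novelty. The share of all genes with this pattern was not counted, so the 6 are not read as an excess. Dnajb6 and Trp53tg5 were named for a small p in the test between genotypes. The difference of the effects, wild type minus cbp+/-, was tested with limma's interaction term, and none passed over all genes, at adjusted p-values from 0.758 to 0.976. It was 0.71 for Dnajb6, 0.67 for Plin5 and 0.65 for Trp53tg5, each higher after TSA in wild type. It was -0.40 for Mobp, -0.30 for the chaperone gene Pdia3 and -0.21 for S100a9, a neutrophil gene. No cause was tested.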

How the results depend on the processing

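Without the replicate block no gene passed on 18 or on 28 arrays, as with it. From 0 in wild-type novelty, the number of genes called became 3 with the array set block on 24 arrays, 14 with it on all 28, 1 with only the 6 compared arrays, 2 with only the 9 wild-type arrays, 3 with array weights and 1 with an intensity trend. Leaving out 1 array gave 0 to 3, the highest without vehicle replicate 1 (Dcbld1, L3mbtl3 and Rell1) and 2 without TSA replicate 3 (Fahd1 and Lratd1), and leaving out both arrays of replicate 3 gave 1. The robust prior, a repeated quantile normalisation, the filter on dim genes, the mean of probe clusters and the choroid plexus covariate gave 0. The filter on dim genes also removed some of the 24 ranked genes, which have no value there. In all, 17 genes were called under 9 of 22 alternatives. The 24 ranked genes kept their sign in all 520 values available under the alternatives. The ranking required 1 sign in the 3 pairs, so this was largely fixed in advance and lends the ranking no support. For cbp+/- novelty the count became 2 and 4 with the array set block on 24 and 28 arrays, and 0 to 3 with an array left out. In standard housing that block gave 2 genes in wild type and 1 in cbp+/-. The average over the other backgrounds gave 271 genes, 0 without the block and 8, 13 and 125 without array set 1, 2 and 3. Ttr reversed, from 0.11 to -1.48, with the covariate built from its own list; for the other changes the cause was not tested. Both interactions had 0 calls under every alternative run. Signal over background was not available, so low levels such as that of Trp53tg5 rest on the deposited values alone. The vehicle levels of Plag1 and Plin5 were also low, under the lowest array median of 5.46.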
